A study of Mus musculus with 58 samples.

Results

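The Schlafen genes are a family of growth and immune regulators that lie together on mouse chromosome 11, and 7 of them, Slfn1, Slfn2, Slfn3, Slfn4, Slfn5, Slfn8 and Slfn9, were followed here through hematopoietic stem cells (HSCs) of mice on different diets and after knockdown of receptor genes. The members were chosen by symbol, 7 of 55376 genes in every RNA count file, after the fall of Slfn2 in YCR against YAL libraries had been seen. That fall is therefore a description, and so is every value of Slfn2 in a comparison that shares YAL or YCR libraries. A further 3 genes with a Schlafen name, the pseudogene Slfn10-ps, Slfn14 and Slfnl1, are in the files and were not members.

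Male C57BL/6 mice gave the HSCs, which were sorted from marrow as Lin-Sca-1+c-Kit+CD34-Flk2-CD150+ cells. The old mice were 24 to 26 months of age and were fed ad lib (OAL, 4 RNA-seq libraries), kept on lifelong 40% caloric restriction (CR) begun at 3 to 4 months (OCR, 4 libraries), or kept on that diet and then refed ad lib for 4 weeks (OCRRF, 2 libraries). The young mice were 3 to 4 months of age and were fed ad lib (YAL, 4 libraries), put on short-term CR of 20% in the first week and 40% for 3 weeks (YCR, 4 libraries), or refed for 4 weeks after it (YCRRF, 4 libraries). For the knockdowns, HSCs of aged mice were infected with lentiviral shRNA and transplanted into lethally irradiated CD45.1 female mice, from which CD48-CD150+ donor cells with the viral reporter were sorted: GFP scramble (2 libraries), GFP Kdr-shRNA (4 libraries, all with the same shRNA sequence), double scramble with GFP and mCherry (2 libraries), and double knockdown of Kdr and Bmpr1a with either Bmpr1a-shRNA1 (2 libraries) or Bmpr1a-shRNA2 (2 libraries). These cells came from transplanted marrow and a second sort scheme, so their levels were not set against the diet groups. The labels number the libraries of a group without naming the mice behind each, so p-values measure the spread between these libraries.

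Schlafen proteins share a core domain near their start that cuts or binds transfer RNA in several members. The short members Slfn1 and Slfn2 hold little beyond it, Slfn3 and Slfn4 are of intermediate length, and the long members Slfn5, Slfn8 and Slfn9 carry a helicase-like domain as well. Many members are induced by type I interferon. Slfn2 is best known from mutant mice whose T cells and monocytes cannot hold a quiescent state, and quiescence is also the usual state of HSCs in the marrow.

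The 7 genes span 264 kb of chromosome 11, from 82951349 to 83215154 of mm10. In order along the chromosome they are Slfn5 (ENSMUSG00000054404, plus strand), Slfn9 (ENSMUSG00000069793, minus strand), Slfn8 (ENSMUSG00000035208, minus strand), the pseudogene Slfn10-ps, Slfn2 (ENSMUSG00000072620, plus strand, 83065112 to 83070678), Slfn1 (ENSMUSG00000078763, plus strand), Slfn4 (ENSMUSG00000000204, plus strand) and Slfn3 (ENSMUSG00000018986, plus strand). All 7 are annotated as protein coding. Parts of their exons are near copies of each other. Of all 50-base words of its exons, Slfn8 shares 15.6% with another Schlafen gene, Slfn9 10.8%, Slfn4 8.48%, Slfn3 7.20%, Slfn2 4.41% and Slfn1 0.623%, while Slfn5 shares none. For Slfn8 and Slfn9 most of these words are in Slfn10-ps, so some of their reads may have been split between the 3 genes. The antisense gene Slfn5os overlaps Slfn5, and without known strand its reads cannot be told from those of Slfn5.

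The start of Slfn5 in RefSeq lies downstream of its start in GENCODE. The promoters of the 4 members that carry most of the family's RNA are shown because their RNA moved in different directions. Each is the 250 bases before the RefSeq start in GRCm38.p6, read along the strand of the gene, and capitals mark matches to GAAANNGAA (a core of interferon regulatory factor elements) or GGAAGT (the core bound by ETS factors such as PU.1) on either strand.
Slfn2 (chr11:83064862-83065111, plus strand): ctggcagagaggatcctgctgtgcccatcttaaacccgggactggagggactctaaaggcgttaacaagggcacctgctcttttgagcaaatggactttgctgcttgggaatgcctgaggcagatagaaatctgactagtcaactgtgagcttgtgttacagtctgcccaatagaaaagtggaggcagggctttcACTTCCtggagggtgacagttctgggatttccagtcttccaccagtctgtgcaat
Slfn9 (chr11:82991831-82992080, minus strand): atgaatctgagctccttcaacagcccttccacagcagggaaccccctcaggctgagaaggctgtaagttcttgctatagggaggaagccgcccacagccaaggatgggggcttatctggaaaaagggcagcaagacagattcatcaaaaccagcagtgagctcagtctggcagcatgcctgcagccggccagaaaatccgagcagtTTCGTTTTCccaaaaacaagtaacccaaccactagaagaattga
Slfn8 (chr11:83020811-83021060, minus strand): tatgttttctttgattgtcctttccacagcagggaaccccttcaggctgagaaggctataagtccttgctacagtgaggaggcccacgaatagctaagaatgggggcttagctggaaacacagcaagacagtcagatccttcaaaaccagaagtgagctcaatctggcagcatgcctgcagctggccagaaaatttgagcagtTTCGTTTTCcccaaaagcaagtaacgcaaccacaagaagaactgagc
Slfn5 (chr11:82951852-82952101, plus strand): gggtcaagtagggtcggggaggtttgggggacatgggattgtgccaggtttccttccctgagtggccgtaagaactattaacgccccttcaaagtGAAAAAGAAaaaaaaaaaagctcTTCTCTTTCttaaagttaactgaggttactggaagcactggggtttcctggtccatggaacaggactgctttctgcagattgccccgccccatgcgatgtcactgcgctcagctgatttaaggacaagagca

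Slfn8 and Slfn9 had the same run, TTCGTTTTC, at 47 and 44 bases before their starts, and their 250-base promoters were 84% identical. The other 20 pairs of members had 54.8% to 62.4% identical bases in the same alignment. GAAANNGAA was in the promoters of Slfn5, Slfn8 and Slfn9, 3 of 7 members, and in 7.13% of 32851 promoters of that length. GGAAGT was in those of Slfn1, Slfn2, Slfn3 and Slfn4, 4 of 7, against 19.7% of all promoters. TTCNNNGAA, the palindrome of STAT elements, and GAGGAAGT, a longer PU.1 core that contains GGAAGT, were in none of the 7, against 7.02% and 2.44% of all promoters. The 4 plus-strand genes downstream of the pseudogene shared a longer run, ACTTCCTGG, whose reverse strand reads CCAGGAAGT and which 0.700% of all promoters hold on either strand. The run was read off these same promoters, so its presence in the 4 genes is a description and the share of all promoters is no test. It is shown in capitals with 20 bases on each side, because it separates Slfn1, Slfn2, Slfn3 and Slfn4 from the other 3 members, and it contains the GGAAGT match.
Slfn1, 74 bases before the start (chr11:83116726-83116774): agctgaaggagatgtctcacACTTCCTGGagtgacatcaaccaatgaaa
Slfn2, 55 bases before the start (chr11:83065037-83065085): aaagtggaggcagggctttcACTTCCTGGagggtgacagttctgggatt
Slfn4, 73 bases before the start (chr11:83175093-83175141): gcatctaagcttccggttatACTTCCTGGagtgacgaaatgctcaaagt
Slfn3, 42 bases before the start (chr11:83191268-83191316): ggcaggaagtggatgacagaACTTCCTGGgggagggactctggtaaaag

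The libraries of the old mice held 23497989 to 34385179 counts on 42071 to 46646 detected genes, those of the young mice 11102898 to 36579392 counts on 22209 to 33496 genes, and those of the transplanted cells 35657999 to 44780217 counts on 23453 to 25447 genes. The 10 HSC markers were detected in every group, with a summed level of 3758 to 5342 CPM (counts scaled to a library of 1000000 by TMM) in the diet libraries. In OCR against OAL 5 of them were lower and none higher, where 3.03% of all genes were lower, with summed levels of 3758 to 4428 CPM in OCR and 4380 to 4944 CPM in OAL libraries. In OCRRF against OAL 3 were lower and none higher, where 2.48% of genes were lower, and the OCRRF libraries summed to 3866 and 3942 CPM. The part of this in the values of the members was not tested. T cell markers summed to 44.1 to 69.1 CPM in the diet libraries, nearly all from Lat. Lineage markers moved with some of the groups. In OCR against OAL, 4 of 7 erythroid markers were lower and none higher, with summed levels of 32.0 to 69.0 CPM in OCR and 35.2 to 229.6 CPM in OAL libraries. There 1 of 7 monocyte and macrophage markers was higher, against 2.54% of genes. Neutrophil markers summed to 4.68 to 108 CPM in OCR and 5.17 to 84.7 CPM in OAL libraries. In OCRRF against OCR, 3 of 7 erythroid and 2 of 6 B cell markers were higher, against 0.694% of genes. There 3 of 4 megakaryocyte and 1 of 7 monocyte and macrophage markers were lower, against 2.71%. In OCRRF against OAL, 2 of 6 B cell and 1 of 7 neutrophil markers were higher, against 1.66% of genes. In that comparison 1 of 4 megakaryocyte markers was lower, against 2.48%. In YCRRF against YCR no lineage marker passed. Neutrophil markers there summed to 265 to 1611 CPM in YCRRF and 2.66 to 358 CPM in YCR libraries. In YAL libraries they summed to 3.66 to 664 CPM. In OAL against YAL 6.89% of all genes were higher and 7.93% lower. Lower there were 4 of 6 B cell, 1 of 7 neutrophil, 1 of 7 erythroid, 1 of 5 T cell and 1 of 5 dendritic cell markers. Higher were 2 of 5 dendritic cell, 1 of 7 erythroid, 1 of 7 monocyte and macrophage, 1 of 4 megakaryocyte and 1 of 5 T cell markers. The part of these markers in the values of the members was not tested. In bulk samples fewer cells of a type and less RNA per cell cannot be told apart.

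Slfn2 was lower in OCR than in OAL HSCs and rose again in OCRRF HSCs. It was measured at 114, 57.1, 41.8 and 52.9 CPM in the 4 OAL libraries. In the 4 OCR libraries it was 17.9, 29.0, 29.2 and 29.8 CPM. The 2 OCRRF libraries held 133 and 77.0 CPM. All 4 OCR libraries lay below all OAL and OCRRF libraries, and OAL libraries were spread widely, with library 1 at about the OCRRF level. The mean fell from 66.4 ± 32.2 CPM (SD, n = 4) to 26.4 ± 5.74 (SD, n = 4), a log2 fold change of -1.31 with a 95% interval from -1.72 to -0.91, or 2.48-fold lower (adjusted p = 3.77e-05, edgeR quasi-likelihood test with Benjamini-Hochberg adjustment over all genes). Without OAL library 1 it was -0.92 (edgeR adjusted p = 0.00105). Against OCR, the OCRRF mean of 105 CPM was 3.84-fold higher, a log2 fold change of 1.94 with an interval from 1.61 to 2.27 (edgeR adjusted p = 3.64e-10). OCRRF against OAL gave 0.65 (SE 0.26, edgeR adjusted p = 0.13), with an interval from 0.10 to 1.21, and the libraries overlapped. Without OAL library 1 this value was 1.08 (edgeR adjusted p = 0.0213) and without OCRRF library 1 it was 0.18 (edgeR adjusted p = 0.748), so the size of the recovery relative to ad lib feeding turns on single libraries of both groups. It also passed with no filter on low counts, at 0.64. The summed T cell markers were 44.1 to 51.7 CPM in OAL and 45.0 to 45.7 CPM in OCR libraries.

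Slfn2 took the same course in young mice, given here as a description. The YAL libraries held 102, 129.8, 140.0 and 124 CPM. Short-term CR libraries held 27.9, 39.0, 21.2 and 30.6 CPM. After refeeding they held 94.4, 108, 98.3 and 108 CPM. YCR libraries lay below every YAL and YCRRF library, and YCRRF overlapped YAL. The log2 fold change was -2.04 (SE 0.18) for YCR against YAL, 4.11-fold lower, 1.77 (SE 0.19) for YCRRF against YCR, 3.41-fold higher, and -0.27 (SE 0.13) for YCRRF against YAL. Over the 6 diet groups, the mean levels ran from YAL (124 CPM) through OCRRF (105), YCRRF (102), OAL (66.4) and YCR (29.7) to OCR (26.4). In that order the libraries of neighbouring groups overlapped everywhere but between OAL and YCR. The difference between the old and young diet effects was not tested, since the young effect chose the gene.

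**Figure D1:**
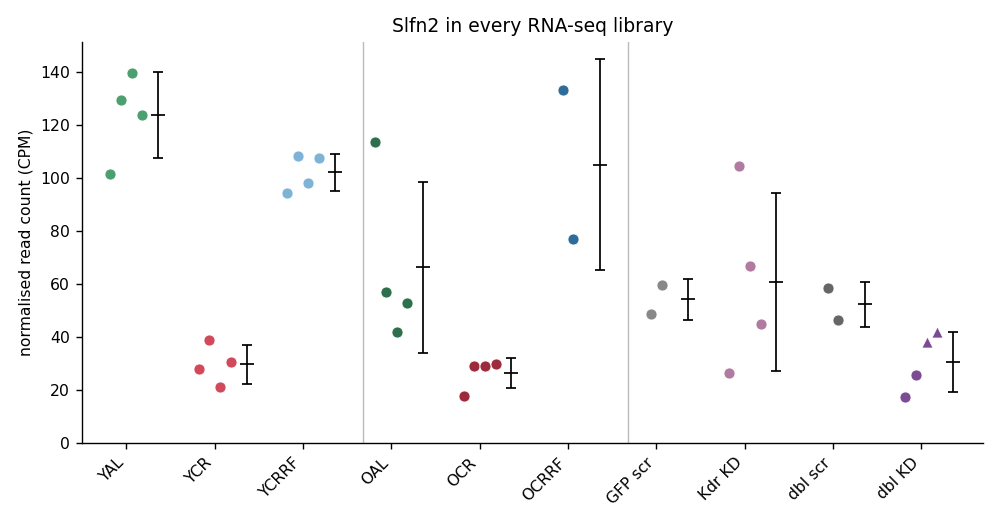
Slfn2 in CPM (y axis) in each RNA-seq library by group (x axis, with scr for scramble and KD for knockdown). Points are libraries, triangles are double-knockdown libraries with Bmpr1a-shRNA2, and black bars give the mean and SD. Both restricted groups sit at 17.9 to 39.0 CPM, below all other diet libraries at 41.8 to 140.0 CPM, and the vertical lines part young, old and transplanted libraries.

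Slfn9, a long member close to the human SLFN11 and SLFN13 genes, went the other way in old mice. It was 54.9, 44.1, 35.7 and 38.3 CPM in the OAL libraries. In OCR libraries it was 95.8, 81.9, 88.9 and 67.8 CPM. In OCRRF libraries it was 50.4 and 49.3 CPM, back inside the OAL range. Every OCR library lay above every OAL and OCRRF library. OCR against OAL gave a log2 fold change of 0.97 (SE 0.11), or 1.95-fold higher (edgeR adjusted p = 9.2e-07), and leaving out any library kept it at 0.88 or more and past the threshold. OCRRF against OCR gave -0.80 with an interval from -1.08 to -0.53 (edgeR adjusted p = 0.000125). In a single fit of all 6 diet groups, whose spread includes the more variable young libraries, the latter was -0.75 and no longer passed (edgeR adjusted p = 0.213).

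In young mice Slfn9 held 61.6, 74.7, 80.6 and 61.0 CPM in YAL libraries and 75.4, 58.6, 72.9 and 44.9 CPM in YCR libraries, and the groups overlapped, with a log2 fold change of -0.12 and an interval from -0.50 to 0.25. YCRRF libraries held 65.5, 51.1, 66.5 and 60.5 CPM. YCRRF against YCR was -0.06, with an interval from -0.47 to 0.35 (edgeR adjusted p = 0.983). The OCR libraries overlapped the young libraries, and the OAL libraries lay below YAL. OAL against YAL gave -0.67 (SE 0.15, edgeR adjusted p = 0.0129), and without OAL library 4 the adjusted p was 0.0512. Young and old libraries also differed in the number of detected genes. The part of that gap in this value, or in any other comparison of old with young libraries, was not tested.

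Slfn5, an interferon-induced nuclear member, moved with Slfn2 in old mice by less. OAL libraries held 31.7, 35.3, 23.3 and 28.0 CPM. OCR libraries held 16.5, 22.8, 23.0 and 19.9 CPM, all below OAL. OCRRF libraries held 31.2 and 30.1 CPM, above all OCR libraries. OCR against OAL was -0.51 (SE 0.13, edgeR adjusted p = 0.0116), and OCRRF against OCR was 0.52 (SE 0.15, edgeR adjusted p = 0.0409). Both calls were lost under other settings. The first was lost without OCR library 1 (adjusted p = 0.0585) or without OAL library 2 (0.113), the second without OCR library 1 (0.105), OCR library 4 (0.0638), OCRRF library 1 (0.414) or OCRRF library 2 (0.127) in edgeR and in DESeq2 (0.0599), and both in a single fit of all 6 diet groups (adjusted p = 1). Young libraries held 16.8 to 25.6 CPM in YAL, 6.34 to 26.7 CPM in YCR and 12.2 to 58.3 CPM in YCRRF, and the 3 groups overlapped. YCR against YAL was -0.67 with an interval from -1.59 to 0.25, and YCRRF against YCR was 1.08 with an interval from -0.14 to 2.30 (edgeR adjusted p = 0.754), so the young values had the signs of the old ones with intervals that held 0.

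Slfn8, the sequence neighbour of Slfn9, differed by less between the old groups, and its calls depended on the filter. Its levels were 69.0, 69.7, 65.7 and 67.4 CPM in OAL, 56.3, 62.6, 58.0 and 65.2 CPM in OCR, and 87.6 and 71.2 CPM in OCRRF libraries. The OCR libraries lay just below OAL and OCRRF. In edgeR with the filter used throughout the differences did not pass the threshold, at -0.15 with an interval from -0.32 to 0.02 for OCR against OAL (edgeR adjusted p = 0.411) and 0.34 with an interval from 0.08 to 0.59 for OCRRF against OCR (edgeR adjusted p = 0.147). With at least 10 counts in every library the latter was 0.38 and passed (edgeR adjusted p = 0.043). The interval for OCR against OAL does not reach the change of Slfn9, despite their like promoters. In young mice the libraries of the 3 groups overlapped, at 67.1 to 106 CPM in YAL, 47.6 to 82.8 CPM in YCR and 38.3 to 92.2 CPM in YCRRF HSCs, with a log2 fold change of -0.42 and an interval from -0.84 to -0.01 for YCR against YAL. Slfn10-ps, which shares exon words with Slfn8 and Slfn9, gave -0.23 (edgeR adjusted p = 0.329) in OCR against OAL, at 22.3 to 28.6 CPM in OAL and 17.8 to 23.2 CPM in OCR libraries.

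The other 3 members were low. Slfn3, an intermediate member, held 3.13 to 4.65 CPM in OAL, 3.99 to 7.30 CPM in OCR, and 3.24 and 3.14 CPM in OCRRF libraries. OCR against OAL was 0.54 (SE 0.21, edgeR adjusted p = 0.161) and OCRRF against OCR was -0.87 (SE 0.28, edgeR adjusted p = 0.0744), where the libraries did not overlap. The latter missed the threshold in this fit and passed in several others, in DESeq2 (-0.97, adjusted p = 0.0176), with DESeq2's size factors (edgeR adjusted p = 0.0289), without OCR library 3 (0.0281), without OCR library 4 (0.0302) and with the replicate number as a block (-1.22, edgeR adjusted p = 0.00535). The value with the block rests on libraries 1 and 2 of each group, since OCRRF has no others. In young mice it was 6.32, 2.93, 5.41 and 4.23 CPM in YAL and 10.0, 8.46, 10.1 and 8.66 CPM in YCR libraries, all higher, with a log2 fold change of 1.00 (SE 0.31). YCRRF libraries held 4.15 to 14.4 CPM and overlapped both. The remaining Schlafen genes were low as well, at 0 to 2.15 CPM for Slfn14 and 0 to 1.26 CPM for Slfnl1 in the diet libraries. Slfn4, a myeloid member induced by interferon, stayed at 0 to 2.65 CPM in every diet library, with 0.823 to 1.92 CPM in OAL, 0.833 to 1.58 CPM in OCR and 2.14 to 2.38 CPM in OCRRF libraries. Slfn1, known for growth arrest when overexpressed, had 0 to 22 counts in any diet library and none in the 4 YCR libraries, and it passed the filter on low counts in the comparisons with OCRRF and in the knockdowns but in none of the other diet comparisons. At this depth a change of Slfn1 with diet was not detectable. A count of 0 in a library allows up to 3 counts, which covers counting error only.

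**Figure D2:**
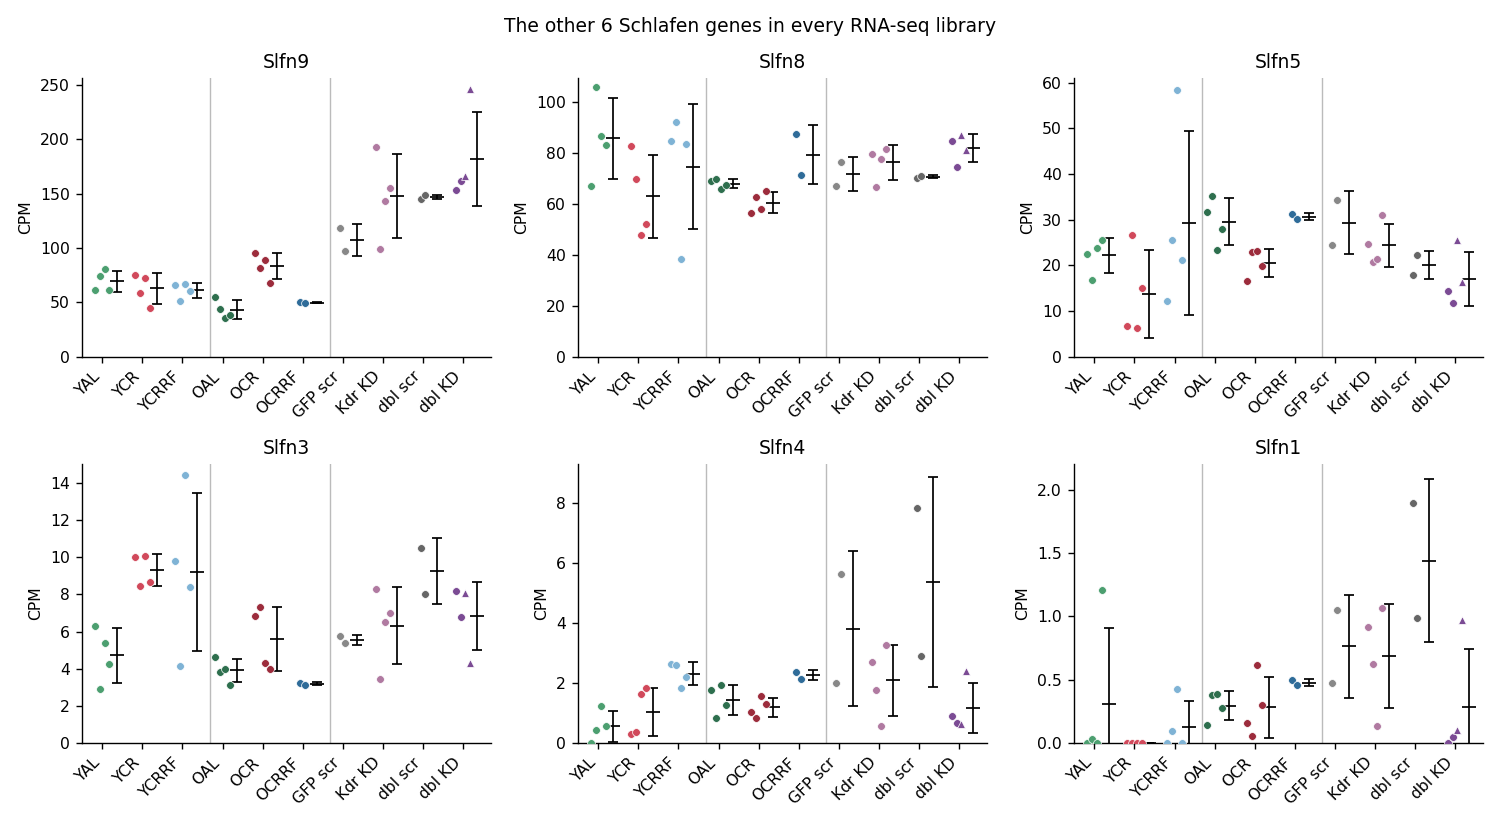
The other 6 members in CPM (y axes, each from 0) in each RNA-seq library by group. Points are libraries, triangles are double-knockdown libraries with Bmpr1a-shRNA2, black bars give the mean and SD and end at 0 where they would cross it. Slfn9 in OCR libraries (67.8 to 95.8 CPM) stands above OAL and OCRRF libraries (35.7 to 54.9 CPM), while Slfn8 holds 56.3 to 87.6 CPM in the old groups.

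Counted over the family, 3 of the 6 members tested in OCR against OAL passed the threshold (a fold change above 1.2 at an adjusted p below 0.05), Slfn2 and Slfn5 lower and Slfn9 higher. Of all 27150 genes tested, 5.57% passed, 3.03% lower and 2.54% higher. Libraries of the groups did not overlap for Slfn2, Slfn5 and Slfn8 (lower, against 7.13% of all genes) and for Slfn9 (higher, against 4.22%). The median log2 fold change of the 6 members was -0.21, and that of all genes 0.02. In OCRRF against OCR, which shares the OCR libraries, 3 of 7 members passed, Slfn2 and Slfn5 higher and Slfn9 lower, where 3.41% of 32577 genes passed, 0.694% higher and 2.71% lower. Libraries did not overlap for Slfn2, Slfn4, Slfn5 and Slfn8 (higher, against 17.4% of genes) and for Slfn3 and Slfn9 (lower, against 10.9%), and with 2 OCRRF libraries such separation is common.

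In OCRRF against OAL none of the 7 members passed in edgeR, and none passed in DESeq2, where 4.14% of all genes tested passed in edgeR. An unadjusted p under 0.05 was reached by Slfn2 and Slfn8, 2 of 7 members, and by 26.9% of all genes, near the share of the members. In YCR against YAL, the comparison behind the choice of the family, Slfn2 alone of the 6 members tested passed, lower, beside 0.257% of all genes in either direction and 0.193% lower, and DESeq2 added Slfn3. Slfn3 was the member whose libraries did not overlap upward (2.49% of genes) and Slfn2 the one downward (3.84%). YCRRF against YCR shares the YCR libraries behind the choice of the family, so its Slfn2 value is a description and not a test. There Slfn2 was 1 of 2 genes that passed among 19535 tested (0.0102% in either direction and 0.0102% higher). This call was lost when any of 5 of the 8 libraries was left out, with the fold change kept between 1.64 and 1.93 on the log2 scale. Slfn2 and Slfn4 libraries did not overlap there, both higher, as for 2.99% of genes, and Slfn4 gave 1.13 (edgeR adjusted p = 0.848). In YCRRF against YAL no member passed in edgeR or DESeq2, and 0.00% of all genes did in edgeR, while 714 genes had an unadjusted p under 0.05. Over all genes, YCRRF library 3 differed from the others of its group by a chi-square per degree of freedom of 153 to 336. Among those others it was 28.4 to 56.4. The part of library 3 in the spread of the YCRRF comparisons was not tested, so few calls there do not show a full recovery. Against YAL, OAL HSCs had 2 members past the threshold, Slfn9 and Slfn2, both lower, beside 14.8% of genes in either direction and 7.93% lower. The value of Slfn2 there was -0.89 (SE 0.26) with overlapping libraries, and its call was lost without any of 6 of the 8 libraries.

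**Figure D3:**
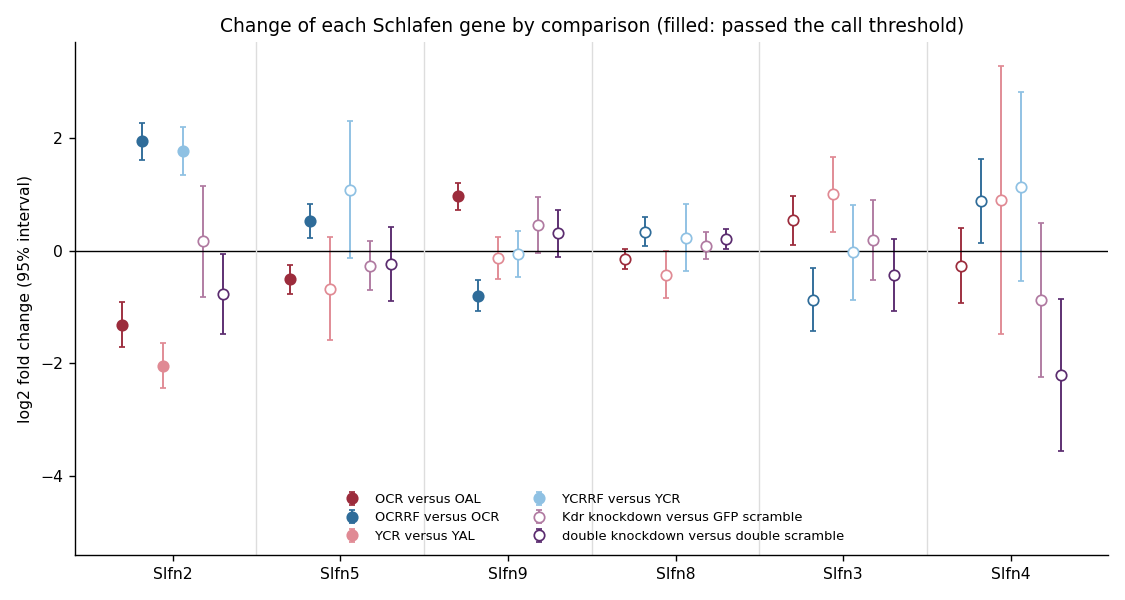
Log2 fold change (y axis) with its 95% interval for each member past the filter on low counts in 6 comparisons. Filled points passed the threshold on adjusted p and fold change, and open points did not. The filled Slfn2 points of the young comparisons are a description, since the fall of Slfn2 in YCR libraries chose the family. Slfn2 falls under CR and rises on refeeding at both ages, Slfn9 does the reverse in old mice with values of 0.97 and -0.80, and the values of Slfn8 lie between -0.42 and 0.34.

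The make-up of the family's RNA shifted accordingly. Per kb of exon, Slfn2 was at 39.9 CPM in OAL, 15.9 in OCR and 63.2 in OCRRF HSCs, Slfn8 at 16.6, 14.8 and 19.4, and Slfn9 at 7.25, 14.0 and 8.36. Slfn2 held 54.9% of the summed CPM per kb of the 7 genes in OAL (47.6% to 67.5% over libraries), 31.5% in OCR (23.6% to 35.8%) and 63.8% in OCRRF HSCs. The share of Slfn9 was 10.6% in OAL, 28.2% in OCR (22.8% to 35.3%) and 8.89% in OCRRF HSCs. In old mice on CR, Slfn2, Slfn8 and Slfn9 were thus at like shares, where Slfn2 was above the others on the ad lib diet. In young mice Slfn2 held 66.3% in YAL, 36.3% in YCR and 62.7% in YCRRF HSCs, and Slfn8 18.6%, 31.2% and 18.5%. The share of Slfn9 in young mice was 10.4%, 21.9% and 10.5%, while its own libraries overlapped between these groups.

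**Figure D4:**
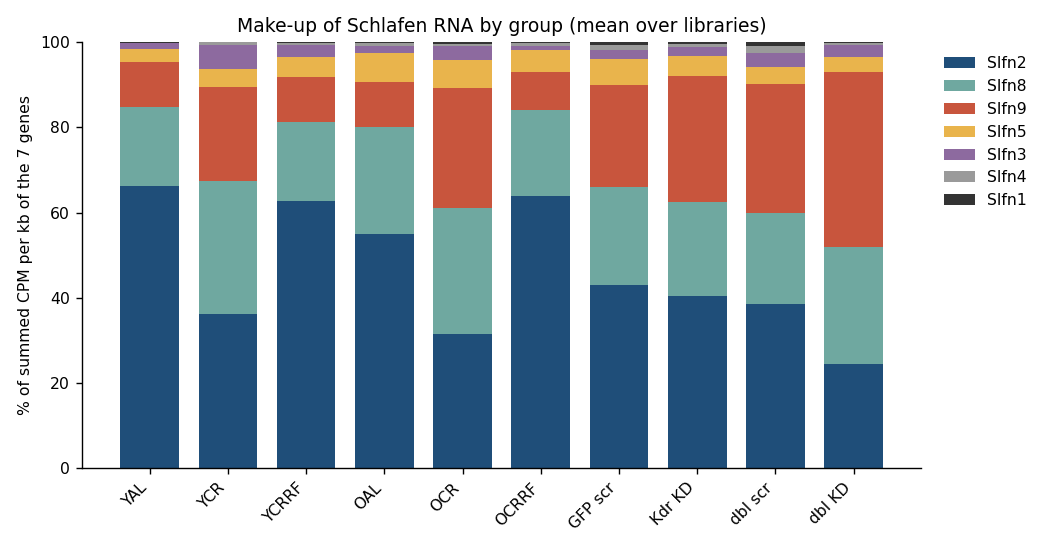
Stacked bars of the mean percent (y axis, 0 to 100) of the summed CPM per kb of exon that each of the 7 members holds in each group (x axis). The Slfn2 segment shrinks to 36.3% in YCR and 31.5% in OCR HSCs, and in the double knockdown Slfn9 holds 41.0%.

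Genes with the pattern most like that of a member were taken by Pearson's r of log2 CPM over the 22 diet libraries among 11486 genes, as a description, since all genes share these libraries and their depth. For Slfn2 they were Serpina3g, a protease inhibitor (r = 0.893), Kcnk5, a potassium channel (0.888), Efna1, an ephrin (0.879), Arhgef3, a guanine nucleotide exchange factor (0.874), and Cish, an inhibitor of cytokine receptor signalling (0.873). Serpina3g was at 1345 ± 227 CPM (SD, n = 4) in YAL, 432 ± 83.8 in YCR, 850 ± 132 in YCRRF, 571 ± 58.9 in OAL, 320 ± 45.3 in OCR and 753 ± 161 (n = 2) in OCRRF HSCs. Cish was at 130.0 ± 21.0 CPM in YAL, 58.0 ± 8.09 in YCR, 127 ± 17.0 in YCRRF, 73.8 ± 34.8 in OAL, 37.4 ± 9.39 in OCR and 68.3 ± 9.58 in OCRRF HSCs. In both genes, as in Slfn2, the restricted group was the lowest at each age. Both were chosen for likeness to Slfn2 in these same libraries, so this shared course follows from the choice. For Slfn9 the nearest genes were Cdc45 (0.792), Kif22 (0.783) and Mcm4 (0.773), of which Cdc45 and Mcm4 encode parts of the replicative helicase. For Slfn8 they were Tnfrsf1b (0.892), Swap70 (0.877) and Ifnar1 (0.874), the latter a chain of the type I interferon receptor, for Slfn3 Sec22b (0.886), Ydjc (0.884) and Idh3a (0.874), and for Slfn5 Smim6 (0.841), Mboat2 (0.817) and Amotl2 (0.805). Among the members themselves r ranged from -0.54 (Slfn1 and Slfn3) to 0.57 (Slfn1 and Slfn5), and that of Slfn2 and Slfn9 was -0.23.

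Other interferon-stimulated genes were lower more often than higher in OCR HSCs. Of 40 listed, 5 were lower in OCR than in OAL HSCs, where 3.03% of all genes were, and none was higher, where 2.54% of all genes were, with a list median of -0.11 on the log2 scale against 0.02 for all genes, and 35 did not pass. The 5 were Ifi27 (-0.52, adjusted p = 0.00108), Ifi44 (-0.38, adjusted p = 0.0179), Ifit3 (-0.68, adjusted p = 0.0226), Ifitm3 (-0.41, adjusted p = 0.000965) and Rtp4 (-0.38, adjusted p = 0.023), all by edgeR. Each of these changes was smaller than that of Slfn2. In OCRRF against OCR, 3 of 40 were higher, Ifi44 (0.48), Iigp1 (0.49) and Oasl1 (0.82), against 0.694% of all genes, and none lower. In YCR against YAL 1 of 40 was lower, against 0.193% of all genes, and in YCRRF against YCR none passed in edgeR. The summed level of the 40 was 2852 to 2944 CPM in YCR libraries, below all YAL (3327 to 3870 CPM) and YCRRF libraries (3559 to 3944 CPM). In old mice it was 2748 to 3200 CPM in OCR, 3075 to 3559 CPM in OAL and 3191 to 3358 CPM in OCRRF libraries, which overlapped. Of 18 genes for interferon receptors and signalling, Socs3, a feedback inhibitor of cytokine signalling, was the 1 lower in OCR (-0.79, edgeR adjusted p = 0.0013), and none passed in OCRRF against OCR. In OAL against YAL, 2 of the 40 were higher and 7 lower, and of the 18, 1 was higher and 6 lower, where 6.89% of all genes were higher and 7.93% lower. In both lists the number lower was above that share. Old and young libraries also differed in the number of detected genes, and the part of that gap in these counts was not tested.

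Of 14 quiescence genes, Btg2, an antiproliferative gene, was higher in OCR than in OAL HSCs (0.67, edgeR adjusted p = 0.0117), and the transcription factor genes Foxo1 (-0.76, edgeR adjusted p = 1.79e-06) and Foxp1 (-0.34, edgeR adjusted p = 0.00387) were lower. Among 10 genes that flank the cluster, 1 passed in OCR against OAL, Mmp28, a matrix metalloproteinase gene (-0.84, edgeR adjusted p = 0.00174), and none passed in OCRRF against OCR. Of all genes 2.54% were higher and 3.03% lower in OCR against OAL. In OCRRF against OCR 1 of the 14 quiescence genes was lower, against 2.71% of all genes. In OAL against YAL 1 of the 14 was higher and 4 were lower. Of 9 flanking genes tested there, 1 was higher and 2 were lower, where 6.89% of all genes were higher and 7.93% lower. In the knockdowns none of the genes of these 4 lists passed in edgeR.

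The knockdowns were directed at the receptor genes Kdr and Bmpr1a, which in these data were lower in OCR than in OAL HSCs (-1.14, edgeR adjusted p = 7.8e-07, and -0.76, edgeR adjusted p = 6.58e-05), so that the members can be read against a change of Kdr, or of both genes together, without the diet. Knockdown of Bmpr1a alone was not among the groups. The targeted gene Kdr was at 6.04 and 6.07 CPM in GFP scramble and 1.93, 2.21, 3.28 and 2.03 CPM in Kdr-shRNA libraries, which did not overlap (log2 fold change -1.35, SE 0.25, edgeR adjusted p = 0.247). In the double experiment it was 3.97 and 4.62 CPM in scramble and 0.555 to 1.60 CPM in knockdown libraries. Bmpr1a was at 5.21 and 4.43 CPM in double scramble, 4.44 and 0.656 CPM in Bmpr1a-shRNA1 and 2.22 and 0.595 CPM in Bmpr1a-shRNA2 libraries. The library labelled Bmpr1a-shRNA1 replicate 1 was thus at the scramble level of Bmpr1a, and edgeR values of the 7 members without it are given below.

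Slfn2 libraries of the double knockdown all lay below their scrambles, without passing the threshold, while Kdr-shRNA libraries lay on both sides of their scrambles. In the double experiment it was 58.4 and 46.3 CPM in scramble, 17.2 and 25.7 CPM in Bmpr1a-shRNA1 and 38.0 and 41.8 CPM in Bmpr1a-shRNA2 libraries, so 4 of 4 knockdown libraries lay below both scrambles. The log2 fold change was -0.77 (SE 0.31, edgeR adjusted p = 0.472) with an interval from -1.48 to -0.05, and -0.57 (edgeR adjusted p = 0.468) without the library labelled Bmpr1a-shRNA1 replicate 1, which had the lowest level. With Kdr-shRNA alone Slfn2 ranged from 26.5 to 105 CPM (26.5, 105, 66.8 and 44.8), around scramble levels of 48.8 and 59.8 CPM, and the log2 fold change was 0.16 with an interval from -0.82 to 1.14 (edgeR adjusted p = 0.935). Summed HSC markers were 2819 to 3217 CPM with Kdr-shRNA, below the 3426 and 3648 CPM of its scrambles, and 7 monocyte and macrophage markers summed to 48.0 to 84.9 CPM against 33.1 and 42.1 CPM, while none of these genes passed, and their part in the values of the members was not tested. The difference between the knockdowns was -0.93 (SE 0.62, edgeR adjusted p = 1).

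Slfn9 was at 118 and 96.9 CPM in GFP scramble, 193, 99.4, 143 and 155 CPM with Kdr-shRNA, 145 and 148 CPM in double scramble, and 153, 161, 166 and 246 CPM in the double knockdown. The changes were 0.46 (SE 0.22, edgeR adjusted p = 0.581) and 0.31 (SE 0.18, edgeR adjusted p = 0.622). Slfn4 was at 7.84 and 2.90 CPM in double scramble and 0.899, 0.682, 0.649 and 2.41 CPM in the double knockdown, a log2 fold change of -2.21 (SE 0.58) that did not pass in edgeR (adjusted p = 0.321) and passed in DESeq2 (adjusted p = 0.0216). Slfn1 was at 1.89 and 0.984 CPM in double scramble and 0, 0.0505, 0.0998 and 0.974 CPM in the double knockdown (edgeR adjusted p = 0.578). Slfn8 was at 67.2 and 76.4 CPM in GFP scramble, 66.5 to 81.6 CPM with Kdr-shRNA, 70.3 and 71.1 CPM in double scramble and 74.4 to 87.2 CPM in the double knockdown, with log2 fold changes of 0.09 and 0.21 (edgeR adjusted p = 0.828 and 0.44). Slfn5 (-0.27 and -0.23) and Slfn3 (0.18 and -0.44) overlapped between each knockdown and its scramble. Without the library labelled Bmpr1a-shRNA1 replicate 1 the double-knockdown values were 0.38 for Slfn9, -2.11 for Slfn4, -1.95 for Slfn1, 0.20 for Slfn8, -0.16 for Slfn5 and -0.53 for Slfn3, and none of these passed in edgeR (adjusted p = 0.415 to 0.918). Neutrophil markers, 7 genes, moved with the libraries too, at a summed 1625 to 4540 CPM in double scramble and 292 to 2860 CPM in double knockdown libraries, and their part in the values of Slfn4 and Slfn1 was not tested.

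No member passed the threshold in either knockdown in edgeR. Of all genes 0.0149% passed with Kdr-shRNA and 0.00498% in the double knockdown, and 1789 and 1977 genes, or 8.90% and 9.85%, had an unadjusted p under 0.05. Among members these were none with Kdr-shRNA and 3 of 7, Slfn2, Slfn4 and Slfn8, in the double knockdown. Libraries of the double experiment did not overlap for Slfn1, Slfn2 and Slfn4 (lower, against 10.8% of genes) and for Slfn8 and Slfn9 (higher, against 10.5%). Leaving out a library can only narrow the range of its group, so these 5 had to stay apart without the library labelled Bmpr1a-shRNA1 replicate 1. No further member joined them. For the difference between the knockdowns 0.00% of genes passed, 760 had an unadjusted p under 0.05, and no member passed in edgeR or DESeq2.

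Accessible chromatin at the members was measured by ATAC-seq in OCR (4 libraries) and OCRRF (2 libraries) HSCs, with 15721335 to 19558148 counts in peaks per library. OAL libraries of this assay were not analysed here. Of 131918 peaks, 12 overlapped a member or lay within 10 kb of its start. None of the 12 passed (adjusted p below 0.05, fold change above 1.5 and mean log2 CPM above 1.5) in edgeR or DESeq2, where 0.221% of all tested peaks passed in edgeR. None of the 12 had an unadjusted p under 0.05 in edgeR, against 11.7% of all tested peaks. The 12 log2 fold changes ran from -0.28 to 0.45, with a median of 0.11 against -0.01 for all peaks.

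The peak at the Slfn2 start (chr11:83064798-83065352), which covers the promoter shown above, was small, at 1.51, 3.49, 3.12 and 2.35 CPM in OCR and 3.83 and 3.26 CPM in OCRRF libraries. Its log2 fold change was 0.45 with an upper bound of 0.99 (edgeR adjusted p = 0.536), below the 1.94 of Slfn2 RNA in the same comparison. A second Slfn2 peak inside the gene (chr11:83066652-83067533) gave -0.22 (edgeR adjusted p = 0.699), at 7.36 CPM in OCR and 6.34 CPM in OCRRF HSCs. The peak at the Slfn9 start (chr11:82990678-82992228) was at 6.68, 10.2, 6.52 and 7.88 CPM in OCR and 6.93 and 6.46 CPM in OCRRF libraries, with a log2 fold change of -0.22 (edgeR adjusted p = 0.702). That of Slfn5 (chr11:82951898-82953138) was at 10.6 and 11.0 CPM, with 0.05 (edgeR adjusted p = 0.933). At Slfn1 the peaks held 1.05 and 1.41 CPM in OCR HSCs.

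The promoter mark H3K4me3 was measured in 2 OCR libraries as the authors' signal per base over the 750 bases after the start. It was highest at Slfn8 (37.8 and 33.5) and Slfn9 (34.5 and 29.9), at the 88.5 and 83.7 and the 83.2 and 77.1 percentile of 25127 genes. Slfn3 (22.7 and 21.8), Slfn5 (18.7 and 19.8) and Slfn2 (18.3 and 14.4) lay above the median gene (10.8 and 10.2). Slfn4 (0.321 and 0.477) and Slfn1 (0.206 and 0.287) were near 0, and these were also the members with the lowest RNA. The silencing mark H3K27me3 was highest at the same 2 genes, at 0.469 and 0.913 for Slfn4 and 0.347 and 0.630 for Slfn1 against a median of 0.341 and 0.344, and low at Slfn2 (0.135 and 0.0866). Slfn3, with RNA of a few CPM, had H3K4me3 above that of Slfn2. With 2 libraries of 1 diet, these values allow no comparison with feeding.

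PU.1, an ETS factor of blood cells, was mapped by ChIP-seq in 2 libraries each of OAL, OCR and OCRRF HSCs, with peaks called per library. The labels name the first of these groups OWT and untreated or control. It was taken as OAL because the OAL RNA libraries carry OWT as a second name. Slfn5 and Slfn8, 2 of 7 members, had a peak in the gene or within 10 kb of its start in all 6 libraries, as did 1130 of 21923 protein-coding genes (5.15%). A further peak in all 6 libraries lay between genes, 13128 bp downstream of the Slfn2 start and outside that distance. The peak at Slfn8 lay inside the gene, 410 bp after the RefSeq start, with a fold enrichment of 15.9 and 12.6 in OAL, 18.6 and 13.4 in OCR, and 15.6 and 9.41 in OCRRF libraries. That at Slfn5 lay 618 bp after the RefSeq start, at 6.00 and 10.8 in OAL, 13.7 and 8.46 in OCR, and 6.88 and 7.91 in OCRRF libraries. That beyond Slfn2 was at 6.30 and 9.43 in OAL, 10.2 and 9.95 in OCR, and 8.25 and 7.26 in OCRRF libraries. The higher OCR value at each site came from a library whose total of 5464 peaks was the highest of the 6, against 2262 to 3852 in the others. At Slfn8 the OCR libraries overlapped those of OAL and OCRRF, and at Slfn5 they overlapped OAL and lay above OCRRF. Beyond Slfn2 both OCR libraries lay above the other 4, of which OAL library 2 at 9.43 was the nearest. The share of all PU.1 peaks that separate in these ways was not computed. The paper reports more peaks with increased than with decreased PU.1 binding in OCR HSCs. The 2 libraries of each diet were taken as made with different antibodies, and no test was made.

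The 101 bases around the median summit of each site are shown to place the PU.1 core, read on the plus strand of GRCm38.p6 with GGAAGT or its reverse ACTTCC in capitals.
Slfn5 (chr11:82952670-82952770): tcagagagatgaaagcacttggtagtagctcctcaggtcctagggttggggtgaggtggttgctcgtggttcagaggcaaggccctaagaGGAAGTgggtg
Slfn8 (chr11:83020262-83020362): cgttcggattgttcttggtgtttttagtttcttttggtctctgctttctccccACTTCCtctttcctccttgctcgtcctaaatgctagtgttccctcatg
Beyond Slfn2 (chr11:83078190-83078290): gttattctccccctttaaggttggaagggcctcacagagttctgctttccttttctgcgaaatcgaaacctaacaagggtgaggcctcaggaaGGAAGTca

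All 3 windows held GGAAGT once, and those at Slfn5 and Slfn8 held it within GAGGAAGT, with the latter on the minus strand. Of all PU.1 peaks on chromosome 11, 58.2% to 65.2% of a library held GGAAGT in the same window and 30.0% to 34.2% GAGGAAGT. The GGAAGT matches in the promoters of Slfn1, Slfn2, Slfn3 and Slfn4 shown above lay under no called PU.1 peak in any of the 6 libraries.

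**Figure D5:**
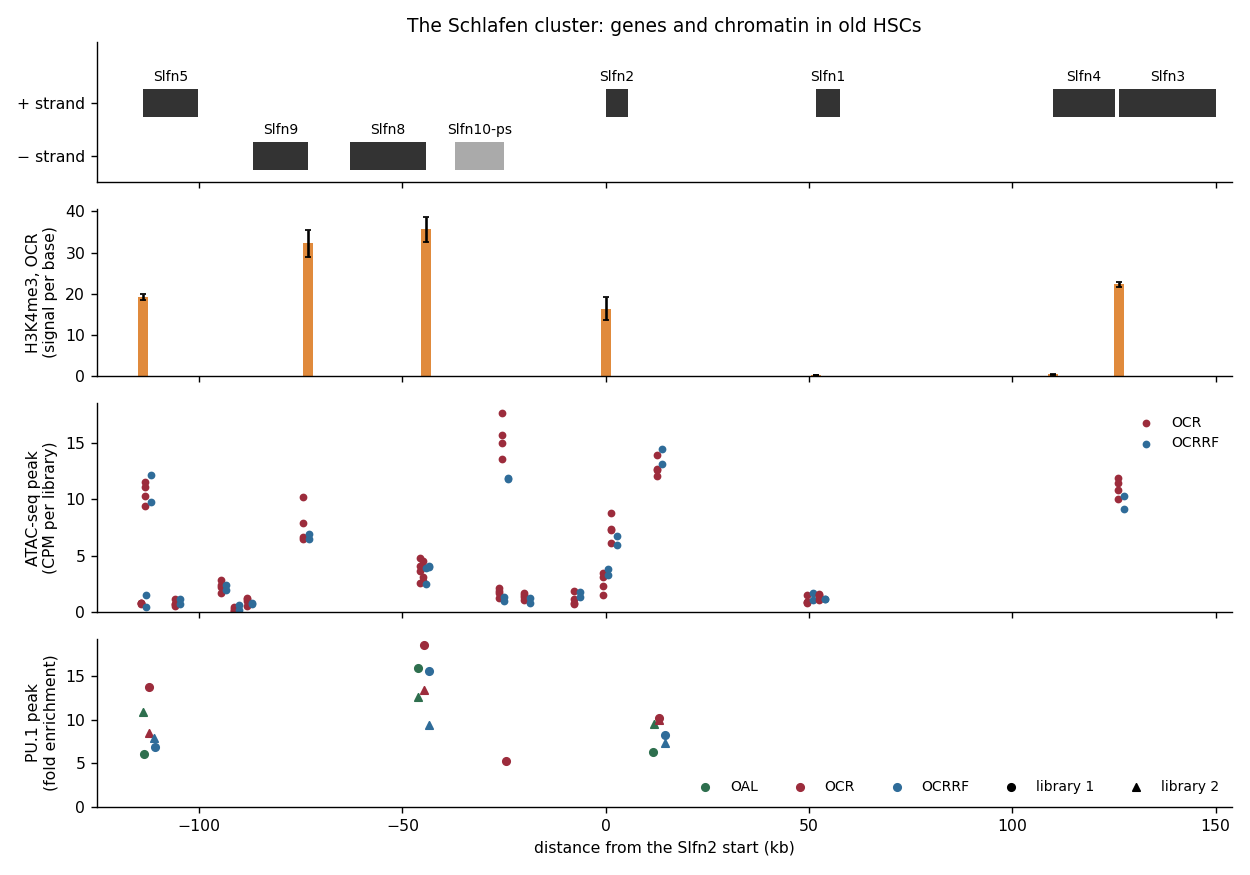
The Schlafen cluster by distance from the Slfn2 start in kb (x axis). From the top: genes by strand (members black, pseudogene grey), H3K4me3 signal per base at each start (bars, mean and SD of 2 OCR libraries), ATAC-seq CPM of each peak (points are libraries), and PU.1 fold enrichment of each called peak (points are libraries). H3K4me3 is near 0 at Slfn1 and Slfn4, ATAC-seq points of OCR and OCRRF libraries mix at the peaks of members, and PU.1 peaks in all 6 libraries stand at 3 sites.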

How the data were processed

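RNA-seq, ATAC-seq, histone and PU.1 ChIP-seq values of mouse HSCs were used as the authors deposited them. Groups and replicate numbers came from the labels. The members and all gene lists were chosen with earlier results of these data known.

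The authors trimmed RNA-seq reads (trim galore 0.4.3, cutadapt 1.12), aligned them with STAR to mm10 with GENCODE M22 and deposited featureCounts counts per gene. Treatment of strand and of reads with several alignments is not given in the sources used here. The labels name a SMARTer total RNA kit and the paper a SMART-Seq kit. ATAC-seq counts were deposited by the authors for 131918 consensus peaks. For histone marks they deposited a signal per promoter, scaled by library, over 750 bp (H3K4me3) or 2000 bp (H3K27me3) after each start. For PU.1 they called peaks in each library with MACS2 2.2.7.1 and deposited a score, a fold enrichment (a ratio) and −log10 p and q for each peak. The antibody of PU.1 libraries 1 is in their labels and that of libraries 2 is not. The paper lists 2 PU.1 antibodies, and libraries 1 and 2 of a diet were taken as made with different ones. Differences between libraries 1 and 2 therefore cannot be told apart from a difference of antibody. The deposited histone and PU.1 values carry no counts. The paper reports read numbers for the ChIP-seq libraries, and these numbers were not used here. Columns of no mapped sample numbered 0.

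Counts were filtered with filterByExpr, scaled by TMM and tested with glmQLFit and glmQLFTest in edgeR 4.0.16 (R 4.3.3), each comparison on its own groups, two-sided, with Benjamini-Hochberg adjustment over all genes or peaks, on scripts tested on simulated data. CPM levels were TMM scaled over the 22 diet libraries and, apart from them, over the 12 transplanted libraries. Libraries of a group differed by more than sampling noise in every pair. Gene positions came from GENCODE M21 and sequences from RefSeq GRCm38.p6. The named genes were the members, the other Schlafen symbols, the targeted genes, the genes most like each member (5 for Slfn2, 3 for other members whose mean reached 5 CPM), and listed genes. Of the lists, up to 4 members by mean CPM were to be named, and the listed genes named beyond those were chosen after their values were seen, because they passed the threshold.

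Alternatives were each library left out, 1 fit of all 6 diet groups, a block for the replicate number, DESeq2 1.42.0 or its size factors, a minimum of 10 counts in each library, and no filter. Same-numbered libraries did not deviate together in every pair of any comparison, so the numbers were not taken as pairs.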

Additional observations from a re-analysis of the deposited data

Results flagged for a closer look

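In 53 sets of 4 libraries (41 of a gene's RNA level, 12 of an ATAC-seq peak), 4 had a library far from the other 3 by Dixon's test, where chance gives about 1 in 20. Slfn2 in OCR library 1 was at 17.9 CPM and the other 3 at 29.0 to 29.8 CPM. Slfn8 in YCRRF library 3 was at 38.3 CPM and the others at 83.4 to 92.2 CPM. The same library had the highest Slfn5 of its group, 58.3 CPM, and the lowest Slfn10-ps, 4.13 CPM. Slfn1 in YAL library 4 was at 1.21 CPM and the others at 0 to 0.0315 CPM. The ATAC-seq peak near Slfn1 (chr11:83115223-83115477) was at 1.56 CPM in OCR library 1 and at 0.826 to 0.918 CPM in the others.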

How the results depend on the processing

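Of 910 log2 fold changes of members under other settings, 844 kept their direction and their side of the threshold, 26 no longer passed, 13 newly passed and 27 changed sign. Of 142 counts of members called, 122 stayed within 1.5 times the reported count. The 13 ATAC-seq and 14 histone values kept theirs. In OCRRF against OCR a single fit of all 6 diet groups called 1 member in place of 3. In OCRRF against OAL 1 member was called with no filter on low counts, and 0 to 1 without each library. In YCR against YAL DESeq2 called 2. In YCRRF against YCR 0 to 1 were called without each library. In OAL against YAL DESeq2's size factors called 1, at least 10 counts in every library 1, and leaving out libraries 0 to 3. In the double knockdown DESeq2 called 1. PU.1 peaks in all 6 libraries were at 1 member with a −log10 q of at least 5, at 1 within 1 kb of a start, and at 3 anywhere in the cluster, the latter added once the data had been seen. The cause of these shifts was not tested.

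With the replicate number as a block (the numbers do not pair the libraries), 3 members were called in OCR against OAL, 4 in OCRRF against OCR, 1 in OCRRF against OAL, 1 in YCR against YAL, 0 in YCRRF against YCR, 0 in YCRRF against YAL, 2 in OAL against YAL, 0 in each knockdown and 0 ATAC-seq peaks. Over all genes the replicate block moved the calls from 1110 to 2889 in OCRRF against OCR and from 48 to 7 in YCR against YAL. OCRRF and GFP scramble hold libraries 1 and 2 only, so their comparisons with the block rest on libraries 1 and 2 of each group. There the effect of the block cannot be told apart from that of setting the other libraries aside. It turned Slfn5 in OCRRF against OAL to -0.11 and, with Kdr-shRNA, Slfn1 to 0.08, Slfn2 to -0.01 and Slfn3 to -0.04.

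The values that changed sign lay between -0.87 (Slfn4 with Kdr-shRNA) and 0.42 (Slfn5 in YCRRF against YAL). Slfn5 in OCRRF against OAL was -0.05 in DESeq2 and -0.02 with its size factors, and -0.03 to 0.16 without each library. Leaving out libraries gave -0.22 to 0.01 for Slfn9 in YCR against YAL, -0.34 to 0.21 for Slfn3 and -0.19 to 0.03 for Slfn9 in YCRRF against YCR, and -0.18 to 0.68 for Slfn5 and -0.31 to 0.02 for Slfn8 in YCRRF against YAL. With Kdr-shRNA it gave -0.62 to 0.52 for Slfn1, -0.24 to 0.41 for Slfn2 and -1.43 to 0.07 for Slfn4. For the difference between the knockdowns it gave -0.23 to 0.26 for Slfn5 and -0.33 to 0.00 for Slfn9. Where 1 library was left in a group, it was taken to vary like the others. Slfn1 and Slfn4 rest on few counts, and depth limits what they can show.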
